A study of Mus musculus with 11 samples.

Results

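The genes described here encode KAP1 (gene symbol Trim28), the histone methyltransferase SETDB1 and 8 related silencers of retroelements, Zfp57, Zfp809, Morc3, Hells, Atrx, Daxx, Smchd1 and Mphosph8. They were chosen by symbol from the gene count table, and all 10 were found among its 25239 genes. Their reads were compared between 3 RNA libraries of J1 mouse embryonic stem cells at day 0. The genotypes were TKO, TKO_FL and TKO_602, with 1 library each, and labels of other samples write the first as DNMT TKO. The labels do not spell out the endings of TKO_FL and TKO_602, nor do they say whether a line is 1 clone. All 3 lines had the J1 background and were grown with serum and LIF on mouse embryonic fibroblasts treated with mitomycin C, so every library may hold some feeder RNA.

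In embryonic stem cells, many endogenous retroviruses are kept silent by a relay of proteins. KRAB zinc finger proteins recognise DNA sequences in the elements and bind the corepressor KAP1, which brings SETDB1 to trimethylate lysine 9 of histone H3, a mark that HP1 proteins and the HUSH complex read. Histone chaperones, chromatin remodellers and DNA methyltransferases act on the same elements, and the ZFP57-KAP1 pair also guards the DNA methylation of imprinted regions.

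In TKO_602 against TKO, the data show a large difference for Zfp57 and smaller ones for Trim28, Hells, Zfp809, Atrx and Daxx. Smchd1 and Mphosph8 differed the other way there. Zfp57, the zinc finger gene of imprinted regions, was 3.18-fold lower in TKO_602 than in TKO, and Trim28 was 2.12-fold lower. Between TKO_FL and TKO none of the 10 genes was 2-fold apart. With 1 library per genotype there is no replicate check and no test: each difference lies between 2 libraries. Intervals of a ratio are exact 95% binomial (Clopper-Pearson) intervals on counts with each read pair taken once and no pseudocount; counting error is the only error in them.

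Promoter sequence is shown first, because the libraries differ in mRNA of Dnmt1, a DNA methyltransferase gene, and the substrate of such enzymes is the CpG dinucleotide. Methylation of these promoters was not analysed here. The windows are the 250 bases before each annotated start, from RefSeq on GRCm38.p6, and all 10 genes matched, with 15 starts, each an exon edge of the count table too. Capitals mark every CpG (CG, which reads the same on both strands). Zfp57 is shown as the gene with the largest difference, Trim28 as the one with the next, and Smchd1 as the gene with the most CpGs, which differed in the opposite direction. The 3 starts of Zfp57 lie on the plus strand of chromosome 17, with windows at chr17:37000913-37001162, chr17:37002275-37002524 and chr17:37003416-37003665. The first lies upstream of the gene and the last in an intron of its longer transcripts, and these are shown; the middle window overlaps annotated exons and is given by its count alone. The Trim28 window is chr7:13023902-13024151 on the plus strand, and that of Smchd1 is chr17:71475344-71475593 on the minus strand.
Zfp57 start 1: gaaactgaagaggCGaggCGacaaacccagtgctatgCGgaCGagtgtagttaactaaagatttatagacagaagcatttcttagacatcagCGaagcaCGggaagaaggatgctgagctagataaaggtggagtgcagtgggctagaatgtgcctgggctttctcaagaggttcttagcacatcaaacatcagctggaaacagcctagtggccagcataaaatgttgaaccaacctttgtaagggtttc
Zfp57 start 3: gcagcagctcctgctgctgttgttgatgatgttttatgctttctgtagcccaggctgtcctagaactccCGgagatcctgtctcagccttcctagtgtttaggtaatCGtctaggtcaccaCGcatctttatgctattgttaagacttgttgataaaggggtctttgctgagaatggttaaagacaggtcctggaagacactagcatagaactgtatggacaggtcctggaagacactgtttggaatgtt
Trim28: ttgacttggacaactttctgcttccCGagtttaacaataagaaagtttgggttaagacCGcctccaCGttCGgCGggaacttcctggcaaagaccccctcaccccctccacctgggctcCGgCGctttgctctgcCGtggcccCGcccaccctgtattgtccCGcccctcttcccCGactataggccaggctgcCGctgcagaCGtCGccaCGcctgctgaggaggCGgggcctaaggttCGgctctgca
Smchd1: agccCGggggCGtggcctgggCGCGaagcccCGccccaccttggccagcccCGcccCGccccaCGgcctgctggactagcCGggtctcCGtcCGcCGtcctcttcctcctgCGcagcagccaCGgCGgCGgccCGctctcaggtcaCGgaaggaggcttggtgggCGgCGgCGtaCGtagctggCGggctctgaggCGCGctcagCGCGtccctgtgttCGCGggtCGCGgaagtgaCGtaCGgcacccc

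The Zfp57 windows hold 6, 7 and 3 CpGs, the Trim28 window 17 and the Smchd1 window 33. Over all 32851 windows of this length the median was 6, so Zfp57 lies near the middle of all promoters, while 4.03% of windows had at least as many CpGs as that of Smchd1. The other genes had 6 (Atrx), 11 (both starts of Zfp809), 13 (Setdb1), 17 (Morc3), 19 (Mphosph8), 28 (Hells) and 25 to 30 (3 starts of Daxx). The hexamer TGCCGC, the letters that ZFP57 binds when methylated, was searched on both strands; it contains a CpG and so overlaps the capitals. It was present in 1 of the 15 windows, that of Trim28, and in 8.68% of all windows. The plot of promoter CpG count against fold sets these counts beside the expression differences below.

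**Figure D1:**
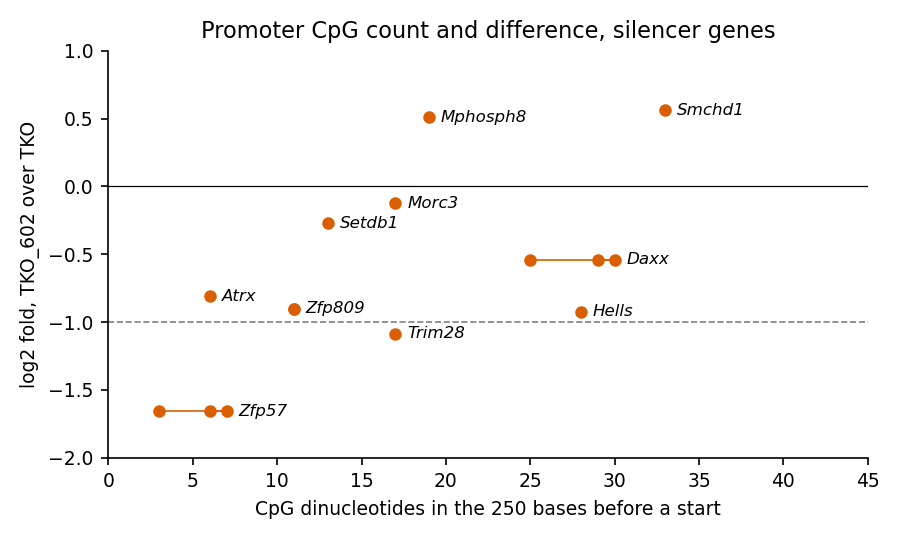
Number of CpG dinucleotides in the 250 bases before each annotated start (x axis) against the log2 fold of TKO_602 over TKO (y axis) for the 10 silencer genes. Points joined by a line are starts of 1 gene, the dashed line is a 2-fold difference, and Zfp57, at 3 to 7 CpGs, has the lowest fold; no relation was tested over these 10 genes.

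The count table held 21133660 assigned reads in TKO, 19573689 in TKO_FL and, at the greatest depth, 43158441 in TKO_602. Dnmt1, the maintenance methyltransferase, stood at 159, 3364 and 2444 CPM in TKO, TKO_FL and TKO_602, where CPM are read counts scaled to library size with TMM factors. All 10 stem cell markers listed (among them Pou5f1, Nanog and Sox2) had reads in each library, with sums of 6170, 7509 and 7619 CPM in the same order. The markers did not move together: in TKO_602 against TKO, 7 were higher and 3 lower (Pou5f1, Zfp42 and Utf1). Pou5f1 had 1386, 1290 and 1169 CPM, and Dppa5a, which weighs heavily in the sums, had 1144, 1632 and 2441 CPM. The 18 fibroblast markers summed to 793, 434 and 636 CPM with none at 0. The 18 primitive endoderm markers, genes of the extraembryonic layer that stem cell cultures can form, summed to 3190, 744 and 1309 CPM, and 2 of them, Afp and Ttr, were at 0 in TKO_FL. These sums move with the genotypes compared below, and their part in the results was not tested. In such bulk RNA, fewer cells of a type and less RNA per cell cannot be told apart. The alignment file of TKO_602 was stored in a different folder from the rest, per the file headers. A folder need not be a batch, but genotype and any batch cannot be told apart where TKO_602 is compared.

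Levels between genes were compared per length, as CPM per kilobase of exonic sequence. In TKO, Trim28 was far above the others at 721, followed by Hells at 167 and Zfp57 at 76.6. Morc3 (45.4), Mphosph8 (38.4), Daxx (35.6), Setdb1 (35.5), Atrx (29.1), Zfp809 (21.5) and Smchd1 (18.0) came next. The neighbours Mphosph8 and Daxx, and Daxx and Setdb1, did not differ beyond their counting intervals. The mRNA level of the corepressor was thus 20.3 times that of its methyltransferase partner Setdb1 per length in TKO, 18.5 times in TKO_FL and 11.6 times in TKO_602.

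In TKO_FL the first 5 places were the same, with Trim28 at 541, Hells at 131, Zfp57 at 52.7, Morc3 at 47.0 and Mphosph8 at 33.7 CPM per kilobase. Below them the intervals of Setdb1 (29.2) and Atrx (27.4), of Atrx and Daxx (26.4), and of Smchd1 (22.5) and Zfp809 (21.2) overlapped. In TKO_602 Trim28 (340) and Hells (87.7) still led. Mphosph8 took the third place at 55.0 CPM per kilobase and Zfp57 stood eighth at 24.1, level with Daxx at 24.4 within counting error. Smchd1, the lowest of the 10 in TKO, was sixth in TKO_602 at 26.6, and Zfp809 was the lowest in both other libraries, at 11.3 in TKO_602.

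**Figure D2:**
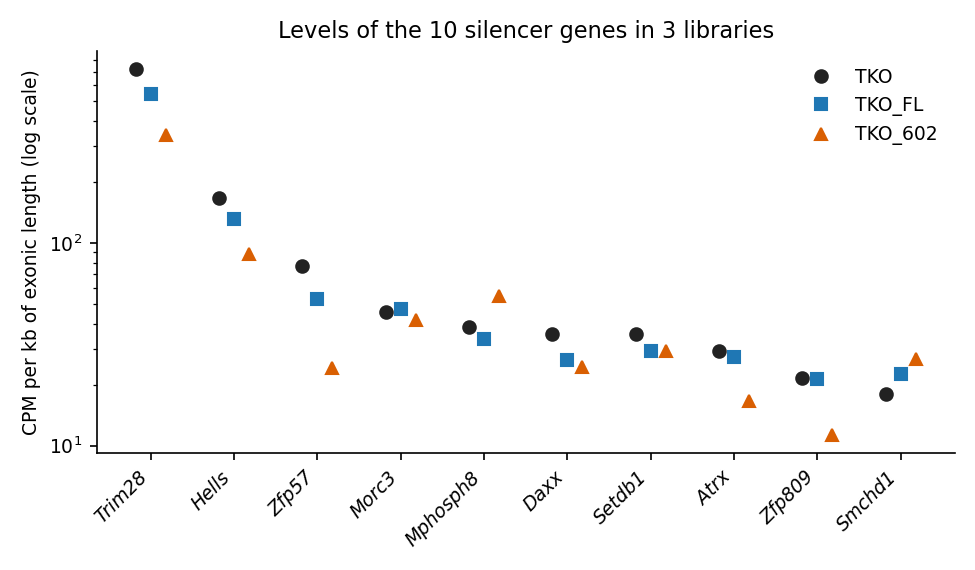
CPM per kilobase of exonic length (y axis, log scale) of the 10 silencer genes, ordered by their level in TKO, with 1 point for each library (TKO, TKO_FL and TKO_602). Trim28 is highest in every library, at 340 to 721, and Zfp57 goes from 76.6 in TKO to 24.1 in TKO_602.

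The corepressor and its enzyme had different orders of the libraries. Trim28 (mm10 chromosome 7, 13024152 to 13031032, plus strand) encodes KAP1, the scaffold that links KRAB zinc finger proteins to SETDB1 and HP1. It had 48413 reads in TKO, 33719 in TKO_FL and 49347 in TKO_602, which gave 2337, 1753 and 1101 CPM. TKO was highest and TKO_602 lowest. On the scale of log2(CPM + 1), used for every log2 fold of genes here, Trim28 was at -0.41 in TKO_FL against TKO (interval -0.44 to -0.39), at -1.09 in TKO_602 against TKO (-1.11 to -1.06) and at -0.67 in TKO_602 against TKO_FL (-0.70 to -0.64). In the deposited table of TPM, counted by fragments, Trim28 had 1568 TPM in TKO and 1178 in TKO_FL, from 24724 and 17261 fragments.

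Setdb1 (chromosome 3, 95323525 to 95357202, minus strand), the methyltransferase that KAP1 recruits, stood at 165 CPM in TKO and at 136 and 137 in TKO_FL and TKO_602. The libraries TKO_FL and TKO_602 were level, at a log2 fold of 0.01 between them (interval -0.09 to 0.10), and both lay below TKO, at -0.28 and -0.27. Of its exonic bases, 75 are shared with Cers2 on the other strand, 1.61% of its length.

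The zinc finger genes that recruit KAP1 were both lowest in TKO_602. Zfp57 (chromosome 17, 37001163 to 37010729, plus strand) encodes the KRAB zinc finger protein that binds methylated imprinting control regions. Its 5123 reads in TKO, 3270 in TKO_FL and 3483 in the deeper TKO_602 library gave 247, 170 and 77.7 CPM. TKO was highest and TKO_602 far below both other libraries. Its log2 folds were -0.54 in TKO_FL against TKO (interval -0.63 to -0.45), -1.66 in TKO_602 against TKO (-1.76 to -1.58) and -1.12 in TKO_602 against TKO_FL (-1.23 to -1.03). It was the only one of the 10 genes past 2-fold in the last comparison, and 1.85% of all genes tested had a fold as low or lower in TKO_602 against TKO. For Trim28 that share was 6.73%. By fragments Zfp57 had 169 TPM in TKO and 117 in TKO_FL.

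Zfp809 (chromosome 9, 22225703 to 22243354, plus strand) encodes a KRAB zinc finger protein that recognises the primer binding site of murine leukaemia virus-type elements. TKO and TKO_FL were level at 45.3 and 44.7 CPM, and TKO_602 had 23.8. The log2 fold between the first pair was -0.02 (interval -0.21 to 0.17), while TKO_602 stood at -0.90 against TKO (-1.11 to -0.75) and at -0.88 against TKO_FL. It rests on the fewest reads of the 10 genes, 938, 859 and 1067, and zinc finger genes have related copies, among which reads that map equally well were left out.

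The readers of the methylated histone mark and the MORC family stood in different orders. Mphosph8 (chromosome 14, 56668248 to 56697429, plus strand), the chromodomain subunit of the HUSH complex, had 114 and 100 CPM in TKO and TKO_FL and 163 in TKO_602. It was therefore highest in TKO_602, by 0.51 on the log2 scale over TKO (interval 0.42 to 0.61) and 0.70 over TKO_FL (0.60 to 0.81), and was slightly lower in TKO_FL than in TKO (-0.19, interval -0.31 to -0.07). The antisense gene Gm16973 covers 383 of its exonic bases, 12.9% of its length, and at 0.936 to 3.03 CPM it had few reads of its own. Morc3 (chromosome 16, 93832121 to 93876073, plus strand), an ATPase of nuclear bodies that represses retroviral elements, had 190, 196 and 174 CPM in TKO, TKO_FL and TKO_602. It was the most even of the 10, with log2 folds of 0.05 (interval -0.04 to 0.14), -0.13 (-0.20 to -0.05) and -0.17 (-0.25 to -0.10) in the 3 comparisons.

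ATRX and DAXX together place the histone variant H3.3 in heterochromatin, and both mRNAs were highest in TKO and lowest in TKO_602. Atrx (chromosome X, 105797615 to 105929372, minus strand), the remodelling ATPase, stood at 298 and 281 CPM in TKO and TKO_FL and at 170 in TKO_602. Its difference lay between TKO_602 and the other libraries, at -0.81 on the log2 scale from TKO (interval -0.88 to -0.75) and -0.72 from TKO_FL, whereas TKO_FL against TKO gave -0.09. Gm14853, a gene with few reads, shares 577 of its exonic bases, 5.63% of its length. Daxx (chromosome 17, 33909445 to 33915590, plus strand), the H3.3 chaperone, had 102, 75.8 and 70.0 CPM in the order TKO, TKO_FL, TKO_602. Here TKO stood above both other libraries, with -0.43 in TKO_FL and -0.54 in TKO_602, and the last comparison was within counting error (-0.11, interval -0.24 to 0.02).

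Hells and Smchd1 were on opposite sides. Hells (chromosome 19, 38930990 to 38968277, plus strand), also called LSH, is a remodelling ATPase needed for DNA methylation of repeats. It had 504, 394 and 265 CPM in TKO, TKO_FL and TKO_602, so TKO was highest and TKO_602 lowest, with log2 folds of -0.35 in TKO_FL and -0.92 in TKO_602 against TKO (interval -0.98 to -0.87). Smchd1 (chromosome 17, 71344491 to 71475343, minus strand), an SMC-type protein of the inactive X chromosome and of clustered and imprinted genes, had 127, 159 and 188 CPM, the reverse order. Its log2 folds against TKO were 0.32 in TKO_FL (0.22 to 0.43) and 0.56 in TKO_602 (0.48 to 0.66).

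**Figure D3:**
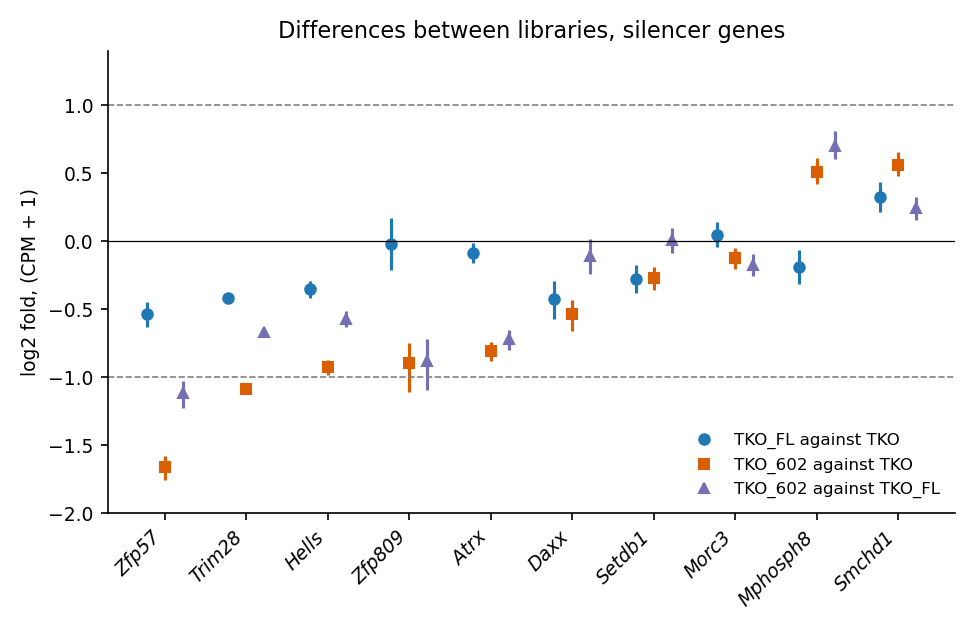
Log2 fold on the CPM + 1 scale (y axis) of the 10 silencer genes in the 3 comparisons, ordered by TKO_602 against TKO. Bars are 95% counting intervals of the ratio and dashed lines mark 2-fold; Zfp57 (-1.66) and Trim28 (-1.09) pass the line in TKO_602 against TKO, and Mphosph8 and Smchd1 lie above 0 there.

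Genes tested in a comparison had at least 1 CPM in 1 of its libraries, and all 10 silencer genes passed. In TKO_FL against TKO, 0 of the 10 were at least 2-fold higher and 0 lower, where 3.24% of the 13563 genes tested were higher and 2.50% lower. Their median log2 fold was -0.23, beside 0.00 over all genes tested, with 8 below 0. In TKO_602 against TKO, 2 were at least 2-fold lower (Zfp57 and Trim28) and 0 higher, where 8.06% of 13748 genes were lower and 11.0% higher. Their median was -0.67, beside 0.03 over all genes, and 8 were again below 0. In TKO_602 against TKO_FL, 1 was lower (Zfp57) and 0 higher, where 4.87% of 13683 genes were lower and 6.75% higher. Here the medians were -0.37 for the 10 genes and 0.03 for all. With so few genes, nothing particular to the group is read from these counts.

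Each pair of comparisons shares a library, so the 3 sets of folds are not independent. By their CPM alone, 6 of the 10 genes had TKO highest and TKO_602 lowest (Trim28, Zfp57, Zfp809, Hells, Atrx and Daxx). That order was held by 24.1% of 13948 genes with at least 1 CPM in a library. Counting error did not separate TKO_FL from TKO for Zfp809, nor TKO_602 from TKO_FL for Daxx. Smchd1 alone had the reverse order, held by 26.6%. The genes whose pair of log2 folds against TKO lay nearest to that of Zfp57 over the 3 libraries, among genes with at least 10 CPM, were Tmem79 (26.8, 18.4 and 7.85 CPM in TKO, TKO_FL and TKO_602), Wnt5a, Pcyt1b, Rexo2 and Zdhhc15, at distances of 0.01 to 0.10 in log2 units. Nearest to Trim28 were Mettl16, Pim2, Mllt11, Eif4g2 and Dohh, at distances of 0.02 to 0.03. Eif4g2, a translation factor gene of like CPM (not scaled to length), had 2238, 1702 and 1067 CPM.

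Other genes of the silencing pathways were taken from 5 lists, of which 57 genes were tested in each comparison. In TKO_FL against TKO, 0 of the 57 were at least 2-fold apart, where 3.24% of all genes were higher and 2.50% lower. In TKO_602 against TKO, 3 were lower and 0 higher, where 8.06% of all genes were lower and 11.0% higher. In TKO_602 against TKO_FL, 5 were lower and 0 higher, where 4.87% were lower and 6.75% higher. The medians of the 57 were -0.01, -0.24 and -0.18, and nothing particular to these lists is read from the counts.

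Genes that recruit or assist KAP1 held most of these. Smarcad1, a remodelling ATPase that binds KAP1, had 345, 272 and 105 CPM in TKO, TKO_FL and TKO_602, so that TKO_602 was lowest, -1.70 on the log2 scale from TKO (interval -1.79 to -1.63). The KRAB zinc finger gene Zfp819 had 30.1, 41.8 and 13.1 CPM (log2 fold -1.14 against TKO and -1.60 against TKO_FL). Zfp445, a second guardian of imprinted regions, had 95.9, 127 and 58.5 CPM, and Zfp42, the REX1 pluripotency factor that also acts on endogenous retroviruses, had 892, 1200 and 589 CPM. Both were highest in TKO_FL and at least 2-fold lower in TKO_602 than in TKO_FL, at -1.11 and -1.03. The other 14 of the 18 genes were within 2-fold in all comparisons. Among them Zfp932, another KRAB zinc finger gene, had 22.5, 11.9 and 12.8 CPM.

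Among the 15 tested genes of H3K9 methylation and HP1, none was 2-fold apart, with medians of -0.07, -0.19 and -0.18 in the 3 comparisons. The HP1 gene Cbx1 had 338, 284 and 181 CPM (log2 fold -0.90 in TKO_602 against TKO), the deacetylase gene Hdac1 had 164, 148 and 86.6 CPM (-0.91), and Rcor1, a corepressor subunit, had 46.5, 43.4 and 84.1 CPM (0.84). Ehmt2, which encodes the dimethyltransferase G9a, was lowest in TKO_FL with 206, 122 and 147 CPM. The 5 tested HUSH and MORC genes were also within 2-fold. Tasor, the scaffold of HUSH, had 154, 100 and 98.3 CPM in TKO, TKO_FL and TKO_602, so it was lower in TKO_602 than in TKO where Mphosph8 was higher. Morc4, a MORC gene of low level, had 7.34, 5.88 and 11.2 CPM and was highest in TKO_602 (log2 fold 0.55 against TKO). Pphln1, which encodes the HUSH subunit periphilin, had 51.3, 52.8 and 35.7 CPM.

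The 14 genes of H3.3 deposition and replication-coupled assembly were within 2-fold throughout, with medians of 0.01, -0.27 and -0.21. H3f3b, an H3.3 gene, had 743, 807 and 449 CPM, the chaperone gene Asf1a had 52.5, 48.6 and 31.0 CPM, the chromatin protein gene Dek had 287, 257 and 194 CPM, and Rif1, a replication timing factor that also silences retroviruses, had 670, 885 and 458 CPM (log2 fold -0.95 in TKO_602 against TKO_FL). Genes for H3.3, HP1 and SUMO have processed copies in the genome, so their reads are uncertain. Of the 5 SMCHD1 partners and other factors, Dppa2 was at least 2-fold lower in TKO_602, with 166, 161 and 74.3 CPM; DPPA2 is known as a binder of CpG-rich promoters that primes 2-cell-stage genes, not as a silencer. Lrif1, which links SMCHD1 to HP1, had 14.3, 14.8 and 8.23 CPM, and Resf1, a helper of SETDB1, had 172, 228 and 265 CPM.

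**Figure D4:**
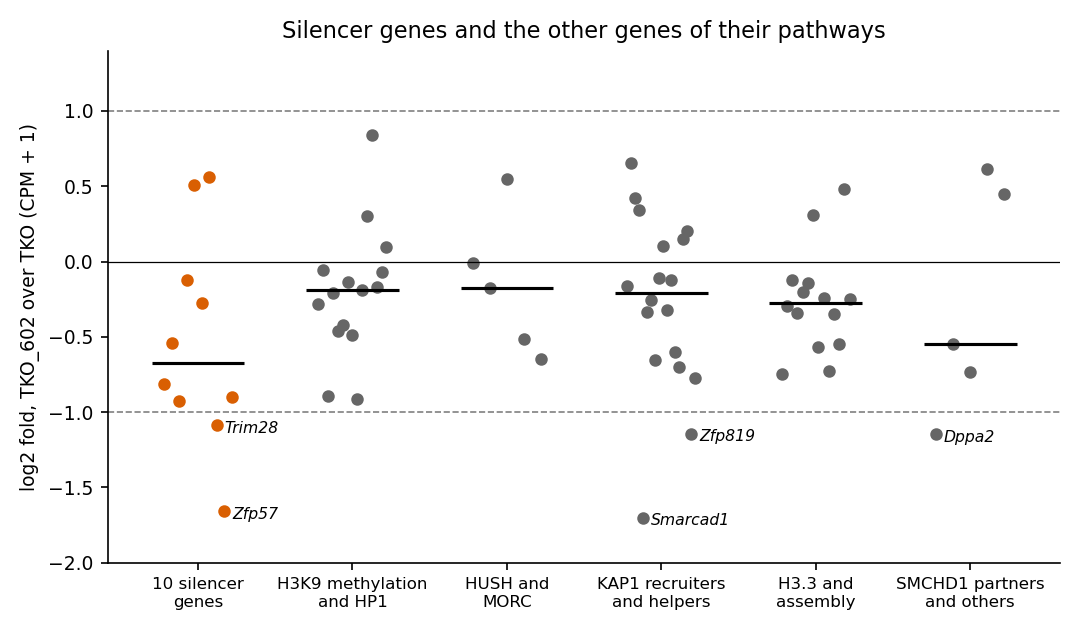
Log2 fold of TKO_602 over TKO on the CPM + 1 scale (y axis) for the 10 silencer genes and for the tested genes of the 5 pathway lists (x axis). Bars are medians and dashed lines mark 2-fold; the genes past 2-fold, all lower, are Zfp57, Trim28, Smarcad1, Zfp819 and Dppa2.

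Imprinted genes and retroelements, on which these silencers are known to act, were read next. Binding was not measured, and a link to the mRNA levels of the silencers was not tested. Among imprinted genes of domains with a germline methylation mark, the kind of site that ZFP57 binds, 2 of 40 tested were at least 2-fold higher in TKO_FL than in TKO and 0 lower, where 3.24% of all genes were higher and 2.50% lower. In TKO_602 against TKO, 10 of 39 were lower and 3 higher, where 8.06% of all genes were lower and 11.0% higher, and the median of the 39 was -0.46. The lower ones were Peg10, Mirg, Mest, Zdbf2, Peg13, Rian, Mcts2, Magel2, Plagl1 and Impact. Some were of low level, such as Magel2 with 3.33, 3.28 and 0.937 CPM in TKO, TKO_FL and TKO_602. Peg10, a gene derived from a retrotransposon, had 694, 520 and 114 CPM in TKO, TKO_FL and TKO_602. Mest had 207, 135 and 48.4 CPM, and Rian, a noncoding RNA of the Dlk1 domain, had 425, 496 and 160 CPM. Both lay below the other libraries in TKO_602.

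The higher ones were Slc22a18, Sgce and Igf2. Sgce and Slc22a18 were also the 2 genes that were higher in TKO_FL, with 3.38, 10.5 and 12.2 CPM for Sgce. Igf2, a growth factor gene, had 16.2, 11.6 and 34.4 CPM. In TKO_602 against TKO_FL, 8 of 39 imprinted genes were lower, Meg3 among them, and 1 was higher, where 4.87% of all genes were lower and 6.75% higher. The median of the 39 was -0.31. Several genes of the list share a domain and are not independent of each other, so nothing particular to the list is read from these counts.

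Retroelement signal was read for TKO and TKO_FL from the authors' repeat table, summed per repeat name and expressed as TPM over repeats. Of 28 retroelement names listed, 26 had at least 5 TPM in a library; 3 were at least 2-fold lower in TKO_FL and 0 higher, beside 13.3% of 969 repeat names apart and 6.71% lower. All 3 are names of the intracisternal A particle (IAP), a retrovirus-like element that KAP1 and SETDB1 are known to silence, of which 6 names were tested. IAPEz-int, its internal part, had 1891 TPM in TKO and 317 in TKO_FL, IAPLTR1_Mm 238 and 70.2, and IAPLTR1a_Mm 44.7 and 11.7. Scaled to gene fragments in place of the repeat total, as CPM, IAPEz-int had 4593 in TKO and 731 in TKO_FL. The other IAP names were within 2-fold, with 35.3 and 22.3 TPM for IAPLTR2_Mm, 10.6 and 10.2 for IAP-d-int, and 9.29 and 9.11 for IAPEY3-int.

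In all, 23 of the 26 names were within 2-fold on the log2(TPM + 1) scale. The highest fold was that of ETnERV3-int, with 3.81 TPM in TKO and 8.14 in TKO_FL (0.93); without the pseudocount its ratio of TKO to TKO_FL was 0.467, past 2-fold. RLTR1B-int had 908 and 574 TPM (-0.66) in the same order. MMETn-int, of the ETn family, had 2402 and 2773 TPM, and MERVL-int, of the elements active at the 2-cell stage, 126 and 121 TPM. MMVL30-int and RLTR4_MM-int, from the group of viruses that ZFP809 recognises, had 48.8 and 37.0 TPM and 57.1 and 50.1 TPM. MMERGLN-int had 92.7 and 56.1 TPM (-0.72), MMERVK10C-int 354 and 243 TPM, and the LINE-1 name L1Md_A 788 and 746 TPM. The median log2 fold of the 26 names was -0.22, beside -0.01 over all repeat names tested. Repeat values of TKO_602 were not analysed here.

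**Figure D5:**
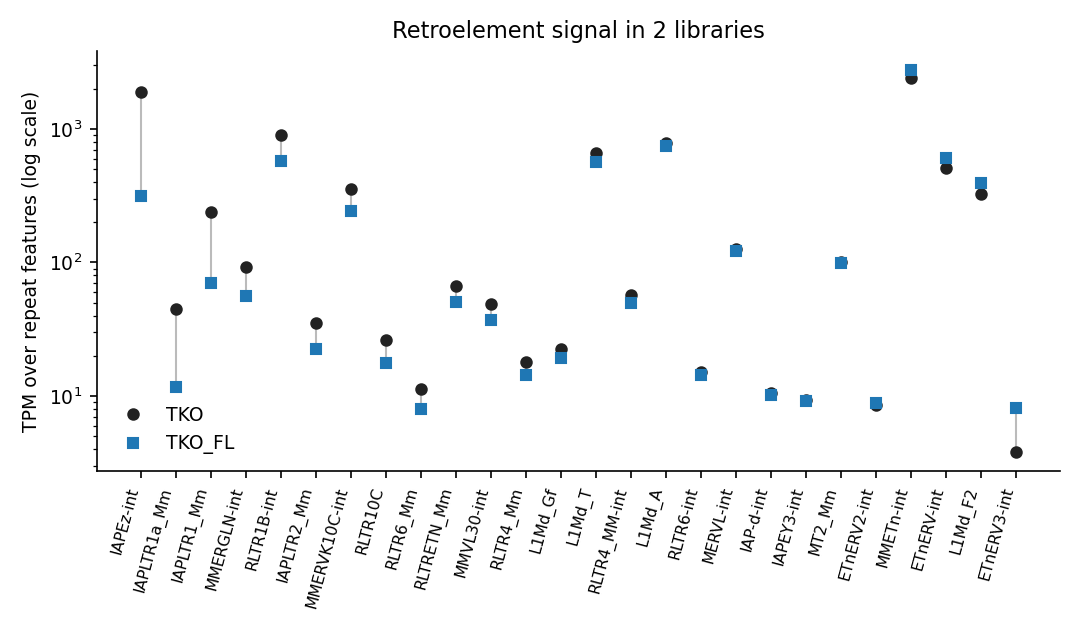
TPM over repeat features (y axis, log scale) of the 26 retroelement names with at least 5 TPM in TKO or TKO_FL, ordered by log2 fold, with 1 point per library. IAPEz-int, IAPLTR1a_Mm and IAPLTR1_Mm at the left have the widest gaps, ETnERV3-int at the right is higher in TKO_FL (3.81 and 8.14 TPM), and MERVL-int, MT2_Mm and L1Md_A lie close together.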

How the data were processed

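The gene table of the authors holds raw read counts, made per the file headers with featureCounts 2.0.6 in paired mode on the mm10 refGene annotation, without options for strand, read pairs or multiple mapping; Trim Galore, HISAT2, SAMtools and Subread are named, per the submitters' processing notes, without a stated order. The deposited gene and repeat signal tables sum to 10000000 and 9802099 (TKO; 9804588 in TKO_FL) per library, so values were divided by 10 and called TPM. Both hold mapped values for TKO and TKO_FL only. Gene values times length gave whole fragments (100% of values, relative tolerance 1e-06). Of the library columns, 11 in every table match no sample and were not used.

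Counts were scaled to CPM with TMM factors (0.980, 0.983 and 1.04 for TKO, TKO_FL and TKO_602; edgeR 4.0.16, R 4.3.3, Python 3.11.15). Log2 folds used a pseudocount of 1 and a minimum of 1 CPM in one library. The fold, 2-fold call and interval steps were tested on simulated counts of known scaling, and the other steps were not. The genes and lists were chosen with earlier results of these data known. Named genes are the 10 silencers, list genes at least 2-fold apart, up to 4 others per list with the largest folds in TKO_602 against TKO, the 5 nearest patterns and overlapping genes. Alternatives covered scaling (total counts, DESeq2 1.42.0 size factors), pseudocounts, filters and TPM. The 8 immunoprecipitation samples were not analysed here.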

Additional observations from a re-analysis of the deposited data

How the results depend on the processing

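The count of silencer genes at least 2-fold apart was the same under all alternatives run in each comparison: 0, 2 and 1. Trim28 in TKO_602 against TKO ranged from -1.10 to -1.002, the end nearest to the threshold being CPM of the total count, and Zfp57 from -1.68 to -1.57. Setdb1 in TKO_602 against TKO_FL changed sign (-0.01 to 0.08), within its counting interval, and no other silencer gene did in any comparison. With CPM of the total count, 7 log2 folds of silencer genes left their counting intervals. In TKO_602 against TKO these were Trim28 (-1.002), Hells (-0.84), Atrx (-0.73) and Morc3 (-0.04). In TKO_602 against TKO_FL they were Trim28 (-0.59), Hells (-0.49) and Atrx (-0.64). All of these left their intervals. Zfp57 in TKO_602 against TKO shifted less, but at -1.575 it also lay outside its interval (-1.759 to -1.582). Morc3 in TKO_602 against TKO_FL did so narrowly, at -0.0949 (interval -0.2548 to -0.0952). Some list medians moved too. That of the HUSH and MORC genes in TKO_602 against TKO_FL was 0.21 with no filter and -0.03 with it. With at least 10 CPM, that of the genes that recruit or assist KAP1 went from 0.10 to 0.22 in TKO_FL against TKO. In TKO_602 against TKO it went from -0.21 to -0.32. Counts over all genes depended on the pseudocount and the filter. In TKO_FL against TKO, 440 higher and 339 lower became 816 and 658 with a pseudocount of 0.1, 97 and 78 with 5, and 195 and 144 with at least 10 CPM. In TKO_602 against TKO, 1506 and 1108 became 695 and 517 with a pseudocount of 5, and 961 and 688 with at least 10 CPM. In TKO_602 against TKO_FL, 667 lower became 1023 with a pseudocount of 0.1, and 924 higher and 667 lower became 344 and 274 with 5, and 565 and 386 with at least 10 CPM. A larger pseudocount shrinks the folds of low genes, and the filter leaves fewer genes tested. An alternative limited to genes of at least 200 bases was chosen after seeing the data. No paired analysis was possible because each genotype has 1 library.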
